A study of Mus musculus with 10 samples.

Results

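The nuclear genes of mitochondrial complex I were followed in the mouse hippocampus, in animals labelled TfamAKO and in wild type controls. The set was every row of the deposited count table whose symbol starts with Nduf, which gave 47 of 20156 rows. All 47 passed the filter on low counts that left 16180 genes for testing. Whole hippocampus RNA came from mice 6 months old, of which 5 were wild type (WT) and 5 carried the label TfamAKO, and each mouse gave 1 library. Tfam is the mitochondrial transcription factor that coats mitochondrial DNA (mtDNA) and starts its transcription. By its title, the study is about astrocytic mitochondria. The sources used here do not give the construct that acted on Tfam, the cells it acted in, or what else the WT mice carried.

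Complex I is the first and largest enzyme of the respiratory chain. It takes electrons from NADH, passes them to ubiquinone and pumps protons out of the matrix. Its matrix arm holds the N module, which oxidises NADH, and the Q module, which reduces quinone. Its membrane arm has a proximal and a distal part that pump protons, built around core subunits encoded by mtDNA and clad in accessory subunits from nuclear genes. Of the 47 rows, 37 are subunit genes, 7 of them core and 30 accessory, 8 are the assembly factors named Ndufaf, and the other two are Ndufa4 and its paralog Ndufa4l2. The complex is found in all cell types of the brain, so that a bulk library sums over them. Fewer cells of a type and less RNA in each cell cannot be told apart in such libraries.

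The 3 genes chosen as markers of the set, Ndufa1, Ndufs1 and Ndufv1, were detected in every library, at WT means of 30.8, 136 and 155 CPM, the count scaled to a fixed library total by the effective library size. The 8 markers of hippocampal neurons, among them Prox1 and Neurod6, were also all detected. Of these, edgeR called 0 different, beside 37.4% of all genes tested (1 lower at an unadjusted p under 0.05). Estimates were below 0 for 7 of the 8, with a median log2 fold change (TfamAKO minus WT) of -0.13. For Fibcd1 all TfamAKO libraries lay below all WT libraries. The 8 markers were not even between libraries. TfamAKO 5 was the lowest of its group for all of them but Wfs1, for which it was the highest. It had 54.4 CPM of Fibcd1 against 152 to 163 CPM in the other TfamAKO libraries. For C1ql2 the values were 38.4 against 119 to 161 CPM, and for Prox1 34.6 against 57.1 to 85.9 CPM. Tfam itself was at 29.7 ± 5.16 CPM in WT and 22.5 ± 1.63 CPM in TfamAKO (SD, n = 5), with the groups overlapping, since WT 3 (20.6 CPM) lay below 4 of the TfamAKO libraries. Some libraries stood apart. WT 3, 4 and 5 carried the choroid plexus markers at summed levels of 5808, 4310 and 2877 CPM, against 42.3 to 169 CPM in the other 7 libraries. By Kdm5d and Xist, TfamAKO 4 and 5 came from male mice and the other 8 libraries did not, so sex was unbalanced between the groups. Results are therefore given with and without these libraries where they differ.

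Promoters are shown for the 3 genes with the largest decrease, and for the core subunit Ndufv1, which was not called. A part of the promoters in the decrease was not tested. Each is the RefSeq window of 250 bases before to 50 bases after the gene's start, in build GRCm38.p6, written 5′ to 3′ on the gene's strand. Capitals mark a match to the motif of YY1, a zinc finger transcription factor (AANATGGC), on either strand. The windows are chr6:39592315-39592614 (plus strand) for Ndufb2, chrX:37191189-37191488 (minus strand) for Ndufa1, chr3:51408906-51409205 (minus strand) for Ndufc1 and chr19:4012706-4013005 (minus strand) for Ndufv1.
Ndufb2: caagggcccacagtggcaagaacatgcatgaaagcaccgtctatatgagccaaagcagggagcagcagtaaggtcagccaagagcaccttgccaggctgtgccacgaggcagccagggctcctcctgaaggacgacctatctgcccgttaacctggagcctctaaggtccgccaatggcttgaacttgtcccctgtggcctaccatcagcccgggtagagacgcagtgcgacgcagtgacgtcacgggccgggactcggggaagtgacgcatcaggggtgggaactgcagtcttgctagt
Ndufa1: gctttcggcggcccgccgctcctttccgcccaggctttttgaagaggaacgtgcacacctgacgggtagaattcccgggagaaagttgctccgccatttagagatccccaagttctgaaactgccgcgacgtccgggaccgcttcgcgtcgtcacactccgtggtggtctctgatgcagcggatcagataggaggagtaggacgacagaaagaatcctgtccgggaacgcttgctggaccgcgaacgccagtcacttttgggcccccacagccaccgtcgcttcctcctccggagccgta
Ndufc1: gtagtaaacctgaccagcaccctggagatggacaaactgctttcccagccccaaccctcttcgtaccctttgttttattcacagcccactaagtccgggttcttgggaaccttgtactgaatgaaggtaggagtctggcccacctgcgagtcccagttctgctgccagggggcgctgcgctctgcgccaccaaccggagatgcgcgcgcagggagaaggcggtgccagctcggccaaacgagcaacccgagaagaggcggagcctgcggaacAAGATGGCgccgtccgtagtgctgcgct
Ndufv1: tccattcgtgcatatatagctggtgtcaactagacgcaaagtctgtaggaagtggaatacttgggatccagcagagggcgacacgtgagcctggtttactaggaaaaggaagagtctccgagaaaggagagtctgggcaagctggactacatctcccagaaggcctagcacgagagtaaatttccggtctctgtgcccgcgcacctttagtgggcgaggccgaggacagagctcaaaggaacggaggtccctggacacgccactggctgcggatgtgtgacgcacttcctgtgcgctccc
A promoter was found for 41 of the 47 genes. On both strands, the YY1 motif was in 34.1% of these 41 promoters and in 6.96% of the promoters of all 27025 genes in the RefSeq table. The motif GCATGCGC of NRF1, a factor known for its sites in respiratory chain genes, was in 12.2% and 3.05%. The ETS motif CCGGAAG was in 14.6% and 9.93%. The motif TGATGNAA, bound by ATF4 with a C/EBP partner, was in 0 of the 41 promoters and 4.51% of all. Among the 13 genes that were lower in TfamAKO, all with a promoter, YY1 letters were in 5, NRF1 letters in 2 and ETS letters in 0. Among the 28 others they were in 9, 3 and 6. These are matches of letters, not measured sites. The YY1 letters hold ATG, and some matches lie after the gene's start, at 22 bases for Ndufc1, 35 for Ndufs4 and 38 for Ndufb8. Others lie before it, as for Ndufb5 and Ndufb11. Whether the matches are start codons was not tested. The 27025 genes were not limited to genes expressed here.

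Of the 47 genes, 0 were higher in TfamAKO and 13 were lower (edgeR quasi-likelihood test, adjusted p under 0.05). At an unadjusted p under 0.05 there were 3 higher, Ndufa2, Ndufaf8 and Ndufv3, and 18 lower, and the DESeq2 Wald test and limma-voom each called 1 higher, Ndufaf8. Over all genes tested, 20.8% were called higher, 16.6% lower and 37.4% in either direction. Among 10579 genes whose mean level lay within the range of the members, with Ndufa4l2 left out, 2419 were higher and 1879 lower. The median log2 fold change (TfamAKO minus WT) of the 47 was -0.12, beside -0.02 over all genes. Below 0 were 38 of the 47, beside 8431 of the 16180 genes tested. Levels of all 5 TfamAKO libraries lay below all 5 WT libraries for 10 of the 47 genes and above them for 0. Over all genes the same held for 9.43% and 14.5%. The largest change was that of Ndufb2, whose mean CPM fell by 41.1%, and 34 of the 47 genes were not called. Against a least change of 1.2-fold (glmTreat), only Ndufb2 and Ndufa1, 2 of the 47, were called, beside 5% of all genes called lower.

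The count depended on the libraries. Without WT 3, 4 and 5 the lower genes were 4, namely Ndufa1, Ndufaf2, Ndufb10 and Ndufb2, while the share of all genes called lower went from 16.6% to 4.48%. Without TfamAKO 4 and 5 they were 9, with a median of -0.06, beside 12.7% of all genes. Without all 5 of these libraries they were 2, Ndufb10 and Ndufb2, beside 3.56% of all genes. With trends in transcript length and GC content removed they were 28, all 13 of the first among them, beside 24.8% of all genes. The median of the 47 was then -0.182, against -0.124 on the same log2 CPM with no trend removed. That of all genes with a known transcript length was -0.069 against -0.008.

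**Figure D1:**
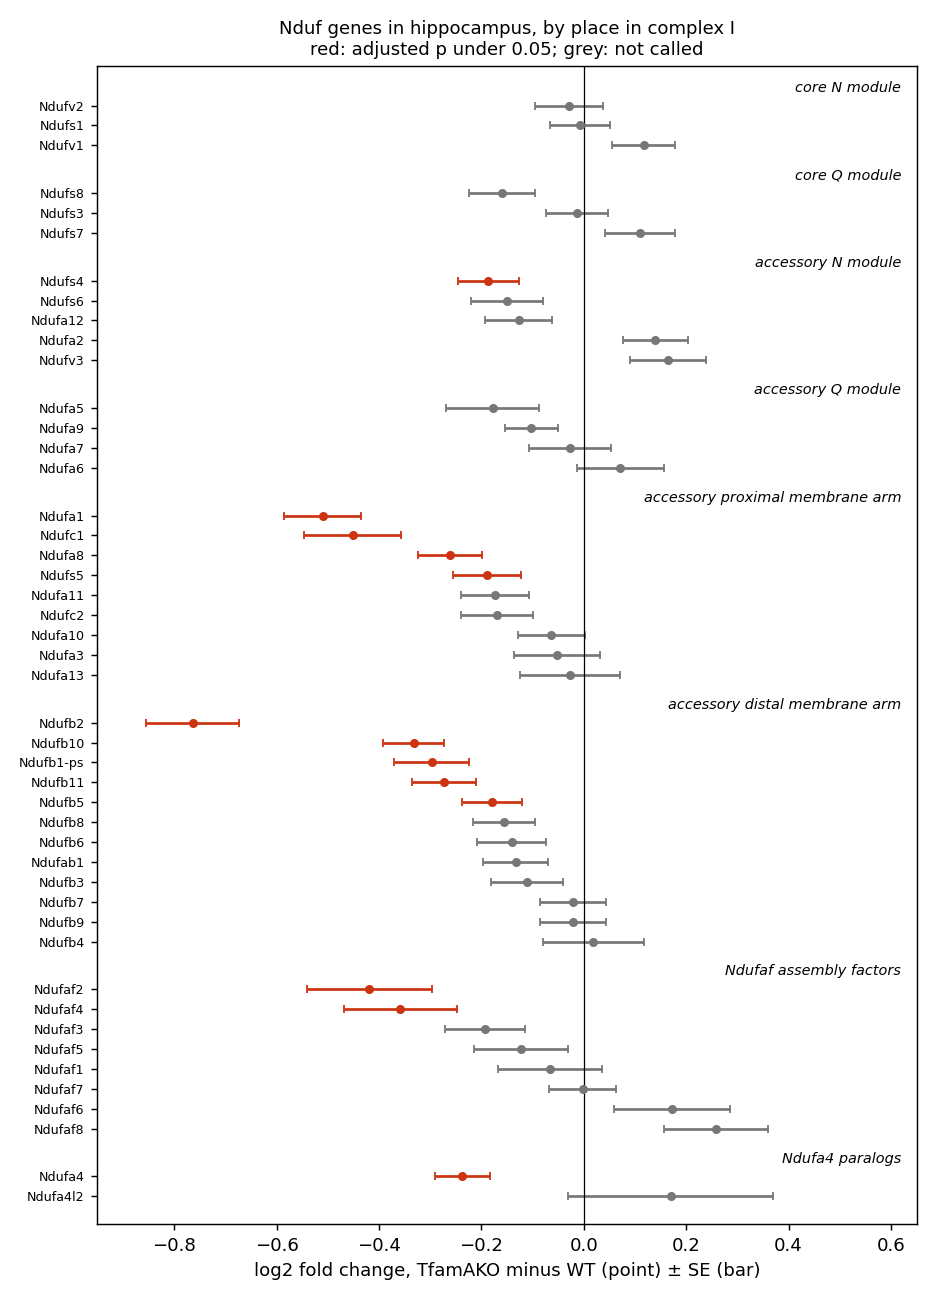
Log2 fold change (TfamAKO minus WT, x axis) with its standard error for 46 of the 47 Nduf genes, grouped by place in the complex; red points have an adjusted p under 0.05. The 13 called genes all lie left of 0, and 9 of them are subunits of the membrane arm.

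The core of the matrix arm carries the flavin and the iron-sulfur clusters. Here 0 of 7 genes were called, beside 37.4% of all genes, and the median was -0.01. At an unadjusted p under 0.05 edgeR gave 1, Ndufs8, and the DESeq2 Wald test and limma-voom also called 0. Ndufv1, the subunit that binds NADH, measured 158.7, 153.2, 146.4, 159.2 and 155.1 CPM in WT 1 to 5. In TfamAKO 1 to 5 it measured 147.4, 181.3, 177.8, 170.8 and 160.5 CPM. TfamAKO 2 to 5 lay above every WT value and TfamAKO 1 lay near the bottom of the WT range, so the groups overlapped (log2 fold change 0.12 ± 0.06 SE, edgeR adjusted p = 0.159). Without TfamAKO 1 it was called higher (edgeR adjusted p = 0.0303). With trends in length and GC content removed its estimate was -0.03, beside a median of -0.07 over all genes.

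Ndufs1, the largest core subunit and a carrier of iron-sulfur clusters, measured 131.4, 132.2, 134.5, 146.7 and 136.7 CPM in WT 1 to 5. It measured 140.6, 141.2, 140.7, 134.8 and 121.1 CPM in TfamAKO 1 to 5. The highest single value was in WT 4 and the lowest in TfamAKO 5, and the means differed by less than either SD (136 ± 6.19 and 136 ± 8.55 CPM, n = 5). Ndufv2, its partner in the N module, was at -0.03 ± 0.07 on the log2 scale.

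The other core genes belong to the Q module. Ndufs8, which carries iron-sulfur clusters on the way to quinone, had the smallest p of them. It measured 58.2, 51.7, 52.2, 57.0 and 54.6 CPM in WT 1 to 5 and 53.1, 45.8, 50.7, 50.8 and 44.5 CPM in TfamAKO 1 to 5. TfamAKO 1 lay inside the WT range and the other 4 lay below every WT value (log2 fold change -0.16 ± 0.07, edgeR adjusted p = 0.0732). Ndufs7, which lines the quinone pocket, was at 0.11 ± 0.07, and Ndufs3 was at -0.01 ± 0.06. The absence of calls in the core did not hold under every setting. With length and GC trends removed, core genes were called lower, among them Ndufs3 (-0.14) and Ndufs8 (-0.30). The median over all genes was -0.07 in that setting. Ndufs8 was also called lower with upper-quartile scaling (-0.19, adjusted p = 0.0386) and without TfamAKO 1 (-0.19, adjusted p = 0.0337).

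Around this core, 1 of 9 accessory genes of the matrix arm was called, beside 37.4% of all genes. That gene was Ndufs4, which helps to hold the N module in place and whose loss in mice is a model of Leigh syndrome. It measured 45.0, 40.6, 41.9, 41.7 and 38.3 CPM in WT 1 to 5 and 38.6, 36.6, 35.8, 36.4 and 34.9 CPM in TfamAKO 1 to 5. The groups touched only where TfamAKO 1 lay just above WT 5, and the mean fell by 12.1% (log2 fold change -0.19 ± 0.06, edgeR adjusted p = 0.0289). This call was lost with the deposited normalized values (adjusted p = 0.0750) and when 1 of 6 libraries was left out: WT 1, WT 3, WT 4 or TfamAKO 2, 3 or 4.

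Among accessory genes of the Q module Ndufa5 had the smallest p. Its WT values were 43.0, 44.5, 37.7, 35.8 and 39.4 CPM, and its TfamAKO values 36.7, 36.0, 37.2, 38.5 and 28.9 CPM. TfamAKO 5 lay well below the other 9 libraries, and the difference was not called (-0.18 ± 0.09, adjusted p = 0.140). Ndufa9 of the same module was not called either (-0.10 ± 0.05, edgeR adjusted p = 0.144). Its groups were just apart, at 92.9 to 97.5 CPM in WT and 79.5 to 92.2 CPM in TfamAKO. Some matrix arm genes pointed upward without a call, namely Ndufv3 (0.17 ± 0.07), Ndufa2 (0.14 ± 0.06) and Ndufa6 (0.07 ± 0.09). On the deposited normalized values Ndufv3 was at -0.10 instead, and without TfamAKO 5 it was called higher. For the 16 subunit genes of the matrix arm together, the median was -0.02.

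The membrane arm held most of the lower subunit genes. In its proximal part 4 of 9 genes were lower and in its distal part 5 of 12, beside 16.6% of all genes. The medians were -0.17 and -0.15. Below 0 were 20 of the 21 estimates, beside 8431 of 16180 over all genes. In the proximal part Ndufa1, a small subunit of the membrane arm encoded on the X chromosome, showed the largest decrease. It measured 29.6, 31.5, 32.4, 31.7 and 28.7 CPM in WT 1 to 5 and 24.1, 20.3, 22.2, 22.4 and 19.2 CPM in TfamAKO 1 to 5. The groups were apart, with TfamAKO 1 the highest of its group, and the mean fell by 29.8% (log2 fold change -0.51 ± 0.08, edgeR adjusted p = 0.000353). As Ndufa1 is X-linked and TfamAKO 4 and 5 are male, the fold change without them is given too: -0.47 (adjusted p = 0.00254).

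Ndufc1, another small membrane subunit, measured 29.7, 24.5, 25.3, 25.7 and 27.1 CPM in WT 1 to 5. In TfamAKO 1 to 5 it measured 22.9, 18.7, 17.9, 20.7 and 16.6 CPM. Again the groups did not overlap and TfamAKO 1 lay closest to WT (the mean fell by 26.8%, log2 fold change -0.45 ± 0.10, edgeR adjusted p = 0.00329). Without WT 3, 4 and 5 its fold change was alike at -0.46, but the adjusted p was 0.0548.

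The other called genes of the proximal part encode proteins of the intermembrane space face. Ndufa8 fell by 16.6% (-0.26 ± 0.06, edgeR adjusted p = 0.00675) and its groups did not overlap. Ndufs5 had the weakest call of all 13 (-0.19 ± 0.07, adjusted p = 0.0434), and it was lost when any of 8 libraries was left out, with limma-voom (adjusted p = 0.0521) and with no filter on low counts (adjusted p = 0.0519). Ndufa11 (-0.17 ± 0.07, adjusted p = 0.0567) and Ndufc2 (-0.17 ± 0.07, adjusted p = 0.0768) had changes of like size and were not called. Ndufa10, Ndufa3 and Ndufa13 lay between -0.06 and -0.03.

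In the distal part Ndufb2 is a small accessory subunit of the membrane and had the smallest p of all 47 genes. It measured 46.4, 40.5, 42.7, 44.9 and 42.6 CPM in WT 1 to 5 and 31.6, 22.7, 24.0, 25.8 and 23.8 CPM in TfamAKO 1 to 5. The groups were apart, with TfamAKO 2 to 5 close together and TfamAKO 1 between them and WT. The log2 fold change was -0.76 ± 0.09 (edgeR adjusted p = 6.78e-05). It was called lower under all 31 alternatives, also without WT 3, 4 and 5 and TfamAKO 4 and 5 (-0.74, adjusted p = 0.0349). On the deposited normalized values it was smaller, at -0.58. Ndufb2 shares 146 exon bases with Braf on the opposite strand in GENCODE M21, and no source used here says whether counting used the strand.

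Ndufb10, which has a fold held by disulfides in the intermembrane space, measured 94.3, 90.9, 84.0, 85.7 and 88.2 CPM in WT 1 to 5. It measured 74.5, 75.6, 69.6, 68.8 and 63.6 CPM in TfamAKO 1 to 5. Every TfamAKO library was below every WT library (the mean fell by 20.6%, -0.33 ± 0.06, edgeR adjusted p = 0.00128). It was the other gene whose call held without all 5 of the libraries that stood apart (adjusted p = 0.0449).

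Called distal genes with groups apart were also Ndufb1-ps (-0.30 ± 0.07, edgeR adjusted p = 0.00788), the row taken here for the Ndufb1 subunit, and the X-linked Ndufb11 (-0.27 ± 0.06, adjusted p = 0.00562). Without the male libraries Ndufb11 was at -0.24 (adjusted p = 0.0133). Ndufb5 was lower by less (-0.18 ± 0.06, adjusted p = 0.0292) and lost its call with any of 6 libraries left out and on the deposited normalized values (-0.11, adjusted p = 0.264). Ndufb8 had groups apart and no call (-0.16 ± 0.06, adjusted p = 0.0597). Ndufab1, the acyl carrier protein of mitochondrial fatty acid synthesis that doubles as a subunit, was at -0.13 ± 0.06 (adjusted p = 0.119). Ndufb7, Ndufb9 and Ndufb4 were at -0.02, -0.02 and 0.02. On the deposited normalized values the genes called in the arm also included Ndufa11 and Ndufb8, both chosen after their values were seen.

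**Figure D2:**
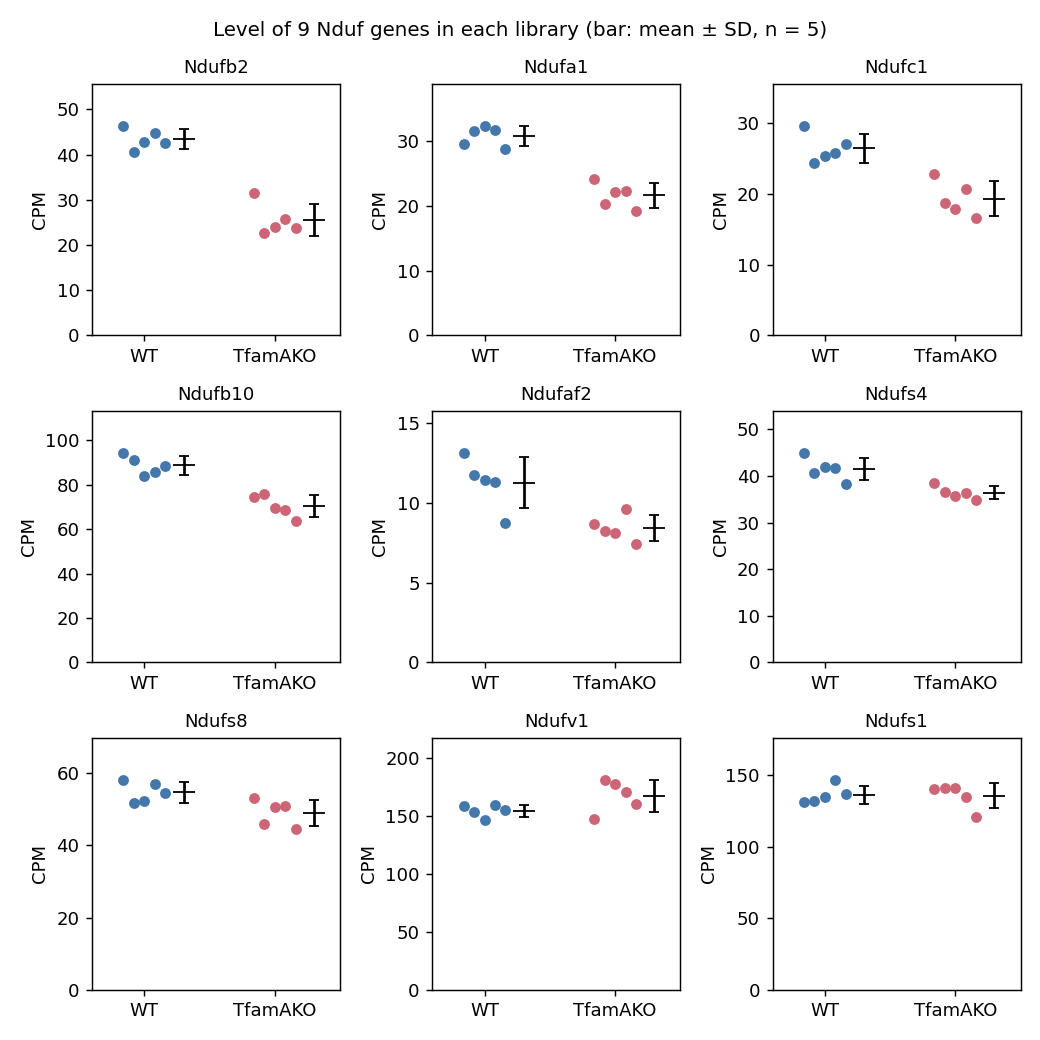
CPM of 9 Nduf genes in each library (points, WT blue, TfamAKO red, in library order 1 to 5) with the mean ± SD of 5 mice beside them; each y axis starts at 0. Ndufb2, Ndufa1, Ndufc1 and Ndufb10 separate the groups, while Ndufs1 and Ndufv1 overlap.

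The arms differed in how many of their genes were called lower, 9 of 21 in the membrane arm and 1 of 16 in the matrix arm. Over all genes the share called lower was 16.6%. The difference between the arms was not tested. The membrane arm median lay below the matrix arm median as reported (-0.17 and -0.02) and under all 31 alternatives, all of which reuse the same libraries. The gap between the medians ran from -0.10 to -0.17. All 7 nuclear core genes are in the matrix arm and all 21 genes of the membrane arm are accessory. The comparison of arms is thus in part one of core with accessory genes. Among accessory genes alone, the medians were -0.13 in the N module and -0.06 in the Q module. They were -0.17 and -0.15 in the proximal and distal membrane arm. The numbers called in each arm moved more than the medians. With length and GC trends removed, 16 genes of the membrane arm and 8 of the matrix arm were lower, beside 24.8% of all genes. The median transcript length was 763 bases for the membrane arm and 1078 bases for the matrix arm, with median GC contents of 52.1% and 53.6%. The median was 1623 bases for core and 812 bases for accessory genes, beside 3066 bases for all tested genes.

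**Figure D3:**
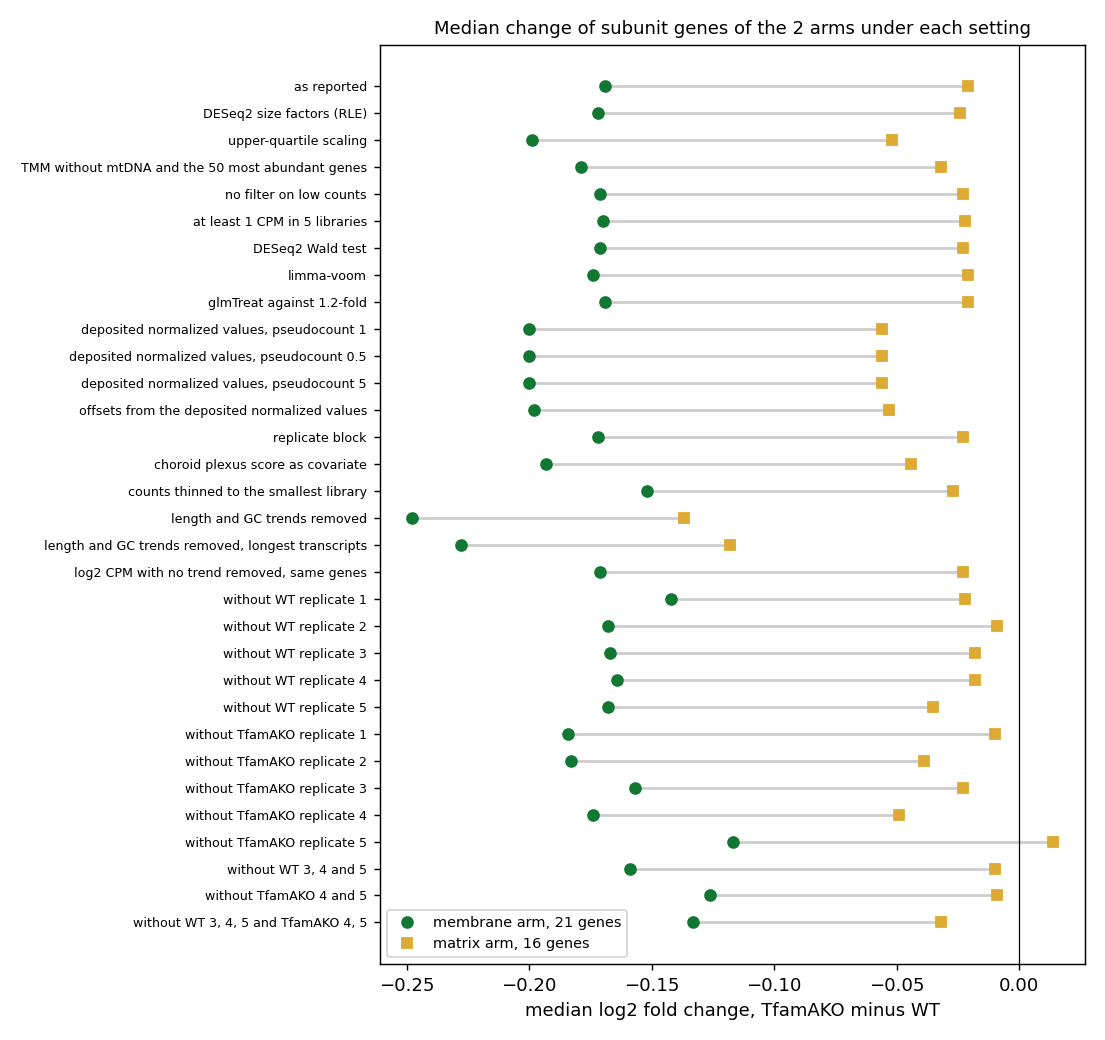
Median log2 fold change (x axis) of the 21 membrane arm genes (green circles) and the 16 matrix arm genes (yellow squares) as reported and under each alternative setting (rows). The circle is left of the square in every row. The matrix arm holds all 7 nuclear core genes, while the membrane arm genes are all accessory.

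The assembly factors help to build the complex and are not part of it. Of the 8 Ndufaf genes 2 were lower and 0 higher, with a median of -0.10. The shares over all genes were 16.6% and 20.8%. Ndufaf2, which sits on a late intermediate where Ndufa12 will bind, measured 13.2, 11.8, 11.4, 11.3 and 8.75 CPM in WT 1 to 5 and 8.69, 8.26, 8.14, 9.61 and 7.43 CPM in TfamAKO 1 to 5. WT 5 was the lowest of its group and lay below TfamAKO 4, so the groups overlapped (the mean fell by 25.2%, -0.42 ± 0.12, edgeR adjusted p = 0.0179). Ndufa12 itself was at -0.13 ± 0.07 (adjusted p = 0.142).

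Ndufaf3 and Ndufaf4 work together on the early Q module. Ndufaf4 fell by 22.0% (-0.36 ± 0.11, edgeR adjusted p = 0.0228), although TfamAKO 1, at 26.7 CPM, lay within the WT range of 26.0 to 29.3 CPM. Its call was lost on the deposited normalized values (adjusted p = 0.0827) and with any of 5 libraries left out. Ndufaf3 was at -0.19 ± 0.08 (adjusted p = 0.0715). Ndufaf5, which hydroxylates Ndufs7, was at -0.12 ± 0.09, and Ndufaf8, the stabiliser of Ndufaf5, had the highest estimate of all 47 genes. That estimate, 0.26 ± 0.10, was not called (adjusted p = 0.0616), with WT values of 8.26 to 9.88 CPM and TfamAKO values of 9.34 to 12.1 CPM. It was called higher by the DESeq2 Wald test (adjusted p = 0.0444) and by limma-voom (adjusted p = 0.0444), while on the deposited normalized values its estimate was 0.10 (limma adjusted p = 0.536). Ndufaf6, which acts early on the membrane arm, was at 0.17 ± 0.11. Ndufaf1, of the complex that assembles the proximal membrane arm, was at -0.07 ± 0.10, and Ndufaf7, a mitochondrial methyltransferase, was at -0.002 ± 0.066.

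Ndufa4 carries a complex I name and is now counted as a subunit of cytochrome c oxidase, complex IV. It measured 152.2, 138.6, 147.0, 138.7 and 141.7 CPM in WT 1 to 5 and 129.1, 122.8, 118.7, 126.9 and 111.9 CPM in TfamAKO 1 to 5. All TfamAKO values were lower (the mean fell by 15.2%, -0.24 ± 0.05, edgeR adjusted p = 0.00531). Its paralog Ndufa4l2, known for induction by hypoxia and as a pericyte marker in brain, was the scarcest row, with 50 to 79 counts in a library. It measured 3.14, 2.85, 2.76, 2.37 and 1.96 CPM in WT 1 to 5 and 2.50, 3.39, 3.95, 2.39 and 2.47 CPM in TfamAKO 1 to 5. TfamAKO 2 and 3 were the highest of all and the others lay inside the WT range (0.17 ± 0.20, adjusted p = 0.525). The 8 pericyte markers, 2 of which were called higher, summed to 255 ± 24.7 CPM in WT and 316 ± 32.4 CPM in TfamAKO, and their part in the level of Ndufa4l2 was not tested.

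Summed over genes, the accessory subunits were lower in TfamAKO and the core subunits overlapped with WT. The 7 core genes summed to 771 ± 17.9 CPM in WT and 779 ± 45.3 CPM in TfamAKO (SD, n = 5), with overlap. The 30 accessory genes summed to 1776 ± 56.5 CPM and 1618 ± 99.6 CPM, and all TfamAKO libraries (1450 to 1700 CPM) were below all WT libraries (1731 to 1873 CPM). The core sum was thus 41.3% to 44.9% of the accessory sum in WT and 45.2% to 50.1% in TfamAKO. TfamAKO 5 had the lowest sum of all 47 genes, 2409.6 CPM, where the other 4 TfamAKO libraries had 2658 to 2765 CPM and WT had 2782 to 2956 CPM. TfamAKO 5 also moved the median of the 47 genes: left out, the median went from -0.12 to -0.08. As raw shares of counts, before scaling by effective library size, the 47 genes took 0.279% ± 0.00864 in WT and 0.269% ± 0.00966 in TfamAKO, and these shares overlapped.

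The mtDNA-encoded core subunits, whose transcription needs Tfam, were measured in the same libraries. Of the 7 mt-Nd transcripts 5 were called lower, beside 16.6% of all genes, and the median of the 7 was -0.49. Mt-Nd5 (-0.23 ± 0.11) and mt-Nd6 (-0.42 ± 0.17) were not called, and the difference from the nuclear genes was not tested. Mt-Nd2 (-0.78 ± 0.10, edgeR adjusted p = 0.000153) and mt-Nd4 (-0.54 ± 0.09, adjusted p = 0.000820) had the smallest p. For each CPM of the 37 nuclear subunit genes there were 7.40 ± 1.15 CPM of mt-Nd transcripts in WT and 5.55 ± 0.41 in TfamAKO. The ranges, 6.35 to 9.07 and 4.94 to 5.94, did not overlap.

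**Figure D4:**
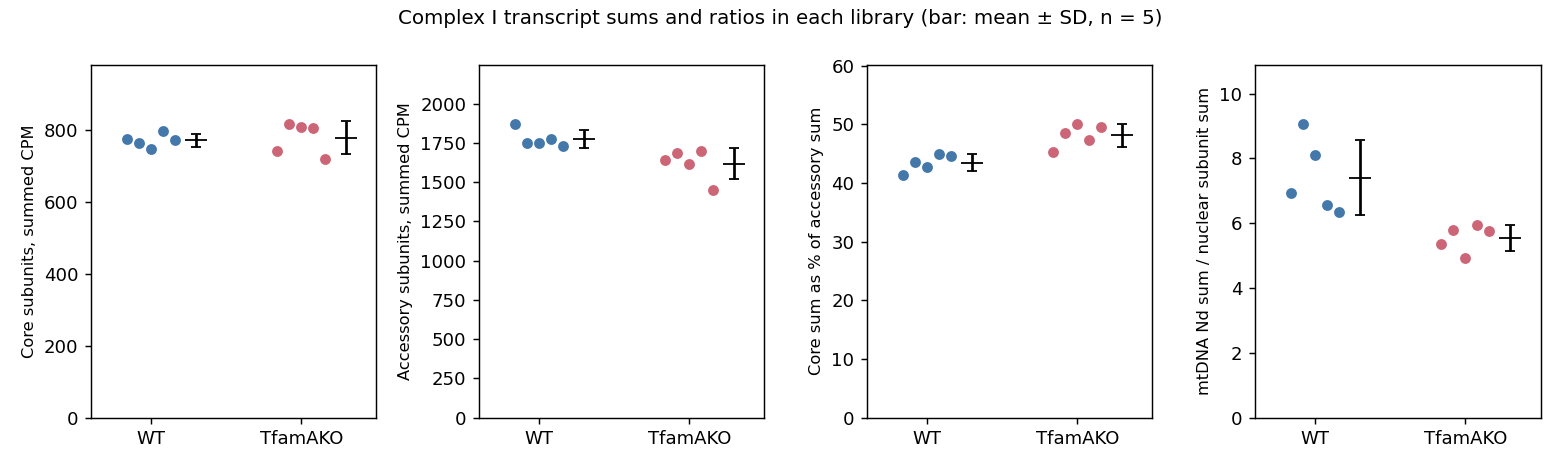
Summed CPM of the 7 core and the 30 accessory nuclear genes, the core sum as percent of the accessory sum, and the ratio of mtDNA-encoded Nd transcripts to nuclear subunit transcripts, in each library (points) with mean ± SD of 5 mice. Core sums overlap between genotypes, and the other panels do not.

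Other genes of the pathway were called in both directions, where 16.6% of all genes were called lower and 20.8% higher. Of 11 tested assembly factors with other names 5 were lower and 1 higher. Tmem126b, of the complex that assembles the proximal membrane arm, was at -0.47 ± 0.11 (edgeR adjusted p = 0.00639), and Aifm1, needed for import of complex I proteins, at -0.38 ± 0.09 (adjusted p = 0.00665). The higher gene was Foxred1 (0.26 ± 0.08, adjusted p = 0.0287). Of 44 tested nuclear genes of complexes II to V 19 were lower and 4 higher, with a median of -0.13 beside -0.13 for the 37 complex I subunits. Cox6c of complex IV (-0.33 ± 0.05, adjusted p = 0.000613) and Uqcrh of complex III (-0.33 ± 0.06, adjusted p = 0.000736) had the smallest p. The 4 higher genes, named after their values were seen, were Sdha, Sdhb, Cox6a2 and Cox6b2.

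Markers of some cell types moved with genotype in the same libraries, where 20.8% of all genes were called higher and 16.6% lower. The 12 neuron markers summed to 9775 ± 307 CPM in WT and 7930 ± 605 CPM in TfamAKO, with 7 lower, 0 higher and no overlap of the sums. The 8 microglia markers summed to 357 ± 24.9 and 652 ± 62.2 CPM, with 7 higher. Of 8 endothelial markers 6 were higher, of 8 astrocyte markers 4 were higher and 2 lower, and of 8 oligodendrocyte markers 1 was higher and 1 lower. All 12 choroid plexus markers were lower, mainly through WT 3, 4 and 5. For Kl, WT 1 and 2 (23.67 and 25.41 CPM) also lay above all TfamAKO libraries (12.05 to 18.78 CPM). The part of these shifts in the levels of the Nduf genes was not tested. With the choroid plexus score as a covariate, 13 Nduf genes were lower, 11 of them among the first 13, beside 11.2% of all genes. The calls lost there were those of Ndufaf4 (-0.35, adjusted p = 0.0908) and Ndufb5 (-0.14, adjusted p = 0.185).

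Levels per length of transcript differed widely within the complex. They were compared for 38 members whose principal GENCODE M21 transcripts have 1 length, which leaves out Ndufb2. In WT, Ndufb9 was highest at 171 ± 8.30 CPM per kilobase, followed by Ndufb8 at 145 ± 4.84 and Ndufb10 at 121 ± 5.62. Ndufc2 (98.8 ± 5.41), Ndufv1 (93.0 ± 3.10), Ndufa8 (92.5 ± 4.42) and Ndufa11 (92.4 ± 4.39) were lower and did not differ beyond their spread. The Ndufaf factors were lower, from 4.99 ± 0.371 for Ndufaf6 to 18.2 ± 1.60 for Ndufaf3, and Ndufa4l2 was lowest at 2.80 ± 0.491. Ndufb4 was the subunit gene with the lowest level, 15.9 ± 2.05. In TfamAKO Ndufb10 stood at 96.2 ± 6.62 and Ndufv1 at 101 ± 8.31, in the opposite order to WT but within their spread.

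Reads of near-identical or overlapping genes limit some members. Ndufb11, Ndufs3 and Ndufs6 had another GENCODE gene of at least 95% identity over at least 50% of the transcript. None of those copies is a row of the table. The search used the longest principal transcript, which has 4371 bases for Ndufb2, 3479 for Ndufab1 and 1249 for Ndufc1. Their shortest principal transcripts have 455, 1416 and 315 bases. A copy of such a short form could not cover 50%, so for these genes the search could not find one. Exons of 15 members overlapped another gene of the table on the opposite strand. Among the called genes these were Ndufb2 (Braf), Ndufb5 (Mrpl47, 530 bases), Ndufb1-ps (Cpsf2, 147 bases) and Ndufb11 (Rbm10, 117 bases). On the same strand, exons of Ndufb2 (Gm42420, 145 bases), Ndufb8 (Gm20538, 134 bases) and Ndufb9 (Gm49356, 193 bases) overlapped genes that are not rows of the table.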

How the data were processed

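The members and gene lists were chosen with earlier results of these data known. Per the labels' protocols the library kit was stranded and selected mRNA. The submitters' processing notes name Salmon and DESeq2 1.26.0. No source used here gives a build or annotation. The authors deposited estimated counts, already whole numbers, for 20156 genes. The normalized values the authors deposited were treated as a signal, since no source used here says how it was made. Total counts ran from 16584245 to 28675367 for a library.

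Counts were fitted with edgeR 4.0.16 in R 4.3.3 (filterByExpr, minimum count 10, 16180 genes kept; TMM; two-sided quasi-likelihood F test on genotype alone) and adjusted by Benjamini-Hochberg over all tested genes at 0.05. The SE was obtained from the size of the log2 fold change and the square root of its F statistic. P-values measure the spread between these mice. Member counts were at least 92 in a library, except for Ndufa4l2. Of the 47 genes 1 enters the counts, medians and sums and is not reported here on its own. The fitting steps were also run on simulated counts. These had no choroid plexus or sex differences between libraries, so that run does not cover such differences.

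Named with values were all called members, the markers, the smallest-p member of each role group, the other core and all Ndufaf genes, Ndufa4 and Ndufa4l2, and the 2 smallest-p genes of each other pathway list. Genes named beside these were chosen after their values were seen. Values in every library were given for the markers, the smallest-p members, both Ndufa4 paralogs and called members changed by at least 0.4 on the log2 scale, and also for Ndufb10.

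Alternatives were DESeq2 size factors, upper-quartile and trimmed TMM scaling, 2 looser or stricter filters, Wald tests in DESeq2 1.42.0, voom (limma 3.58.1), glmTreat, the normalized values with pseudocounts of 0.5, 1 and 5 or as offsets, a replicate block, a choroid plexus covariate, thinned counts, length and GC trends, and left-out libraries. Lengths, overlaps and copies came from GENCODE M21 by symbol, and promoters from RefSeq.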

Additional observations from a re-analysis of the deposited data

Results flagged for a closer look

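Each of the 47 genes was looked at in both genotypes, together with the summed level and the ratio of mt-Nd to nuclear subunit transcripts, in 98 groups of 5 libraries, for a highest or lowest library whose gap to the next took more than 0.71 of the group's range; chance alone flags about 1 group in 20. TfamAKO 5 was far below the other 4 TfamAKO libraries for Ndufa11 (38.9 CPM against 45.1 to 47.2), Ndufa5 (28.9 against 36.0 to 38.5) and Ndufa9 (79.5 against 89.5 to 92.2). WT 1 was far above the other WT libraries for Ndufa8 (86.4 CPM against 77.3 to 78.6) and Ndufab1 (75.2 against 62.3 to 65.4). Ndufaf3 was high in TfamAKO 1 (26.3 CPM against 22.59 to 23.51). Ndufv2 was low in WT 3 (95.1 CPM against 102 to 103).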

How the results depend on the processing

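The 13 called genes kept their direction under all 31 alternatives. Of them, 9 kept their call with each of the 10 libraries left out in turn, the exceptions being Ndufaf4, Ndufb5, Ndufs4 and Ndufs5. With 1 library left out the number of lower genes ran from 9 to 16, beside 12.1% to 20% of all genes called lower. The number higher ran from 0 to 2 (Ndufaf8 and Ndufv1 without TfamAKO 1, Ndufv3 without TfamAKO 5). Lower genes of the matrix arm ran from 0 to 2. The median ran from -0.150 to -0.075, the latter without TfamAKO 5. The number of lower genes was 28 with length and GC trends removed (16 in the membrane and 8 in the matrix arm), with principal as with longest transcripts. The share of all genes called lower was then 24.8%. The same log2 CPM with no trend removed gave 13, beside 17.4% of all genes. With principal transcripts the median was -0.182, beside -0.069 over all genes, and with no trend removed -0.124, beside -0.008. The number of lower genes was 2 against a 1.2-fold change (2 in the membrane and 0 in the matrix arm, beside 5% of all genes). It was 4 without WT 3, 4 and 5 (3 and 0, beside 4.48% of all genes). Without those and TfamAKO 4 and 5 it was 2 (2 and 0, beside 3.56%). Without TfamAKO 4 and 5 the median was -0.064 and 0 matrix arm genes were lower, beside 12.7% of all genes. The matrix arm had 2 lower genes with upper-quartile scaling or the choroid plexus covariate, beside 19.2% and 11.2% of all genes. It had 0 with the deposited normalized values at each pseudocount or as offsets, beside 14.1% to 14.7%. The DESeq2 Wald test and limma-voom called 1 gene higher, Ndufaf8, whose estimate on the deposited normalized values was 0.10. The causes were not tested. The fits without several libraries, both length settings and the untrended fit used fewer samples or genes; those with all 5 libraries left out, longest transcripts and no trend were chosen after seeing the data.

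With a replicate block 12 genes were lower, beside 15.7% of all genes. All were among the 13, with Ndufb5 lost, and the median was -0.125. The labels do not say that the replicate numbers pair mice. Deviations of same-numbered libraries correlated at -0.142 to 0.069, and 0 of 5 WT libraries correlated best with their own number. These correlations are over all genes and include the libraries that stood apart, so they cannot exclude a pairing.

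Of 33 genes not called, 16 changed sign under some alternative, none with a call there. On the deposited normalized values these were Ndufaf7 (0.096 at pseudocounts of 0.5 and 1, 0.095 at 5), Ndufs1 (0.003) and Ndufv3 (-0.098), and as offsets Ndufaf7 (0.090), Ndufs1 (0.003) and Ndufv3 (-0.102). Ndufb4 was at -0.012 with upper-quartile scaling and -0.005 with thinned counts. With the choroid plexus covariate the values were -0.030 for Ndufa4l2, -0.058 for Ndufa6, -0.147 for Ndufb4 and 0.027 for Ndufs1. With length and GC trends removed (median over all genes -0.069) they were -0.025 for Ndufa6, -0.082 for Ndufb4, -0.022 for Ndufs7 and -0.032 for Ndufv1. With longest transcripts (median over all genes -0.067) they were -0.066, -0.087, -0.023 and -0.041. Without WT 3, 4 and 5 they were Ndufa13 (0.006), Ndufa3 (0.018), Ndufa4l2 (-0.006), Ndufa6 (-0.025), Ndufa7 (0.044), Ndufb4 (-0.134), Ndufs1 (0.065) and Ndufs3 (0.005). Without TfamAKO 4 and 5 they were Ndufa13 (0.017), Ndufa3 (0.001), Ndufaf1 (0.047), Ndufaf7 (0.041), Ndufb7 (0.010), Ndufs1 (0.049) and Ndufv2 (0.008). Without both sets they were Ndufa13 (0.015), Ndufa3 (0.037), Ndufa6 (-0.051), Ndufa7 (0.002), Ndufb4 (-0.133) and Ndufs1 (0.087). With 1 library left out the values ran from -0.073 to 0.057 for Ndufa13, -0.101 to 0.006 for Ndufa3, -0.072 to 0.013 for Ndufa7, -0.030 to 0.031 for Ndufaf7, -0.037 to 0.086 for Ndufb4, -0.051 to 0.015 for Ndufb7, -0.055 to 0.013 for Ndufb9, -0.021 to 0.032 for Ndufs1, -0.049 to 0.017 for Ndufs3 and -0.059 to 0.018 for Ndufv2.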
